A study of Glycine max with 12 samples.

Results

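The 4 genes described here, GLYMA_11G225000, GLYMA_18G033100, GLYMA_18G032600 and GLYMA_18G032400, are soybean genes whose Gene Ontology annotation names fatty acid binding and systemic acquired resistance. They were picked from 49128 genes by identifier, from among the genes with the highest fold change in Cd against control, and GLYMA_18G032400 also for its value in Cd+OP against Cd. In all, 29 genes of the table carry both annotations. The measured values that chose the 4 genes are therefore given as a description, and a test is given only for Cd+OP against control+OP, in the 3 genes that were not chosen on the Cd+OP libraries.

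The libraries were made from total RNA of soybean roots (Glycine max, cultivar Williams 82), with 12 libraries in 4 groups of 3: Cd+OP (cadmium with the bacterium Oceanobacillus picturae), Cd (cadmium alone), control+OP (the bacterium alone) and control. The series title concerns relief of cadmium stress and growth of seedlings by this bacterium. The labels put a cadmium dose of 70 mg/L on every sample, controls included, so the dose cannot be tied to a group. The sources used here do not give plant age, exposure time or how the bacterium was applied. Nothing in the labels ties the 3 libraries of a group to different plants, so p-values measure only the spread between these libraries.

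Fatty acid binding proteins of this annotation are related to the plant lipid transfer proteins, small secreted proteins whose folded chain encloses a pocket for lipid chains. Systemic acquired resistance is the state in which a local infection makes distant parts of a plant more resistant to later infection. In Arabidopsis the lipid transfer protein DIR1 is needed for the signal of this state to leave the infected leaf. The soybean table gives the 4 genes no symbol and describes each as a hypothetical protein, as it does 47876 of its 49128 genes. This background is therefore not a measured property of the 4 genes.

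Total counts were 49904227 to 57693211 per library, and within-group correlations across genes were 0.985 to 0.991. Averaged over the 12 libraries, 30340 genes reached 1 FPKM (fragments scaled by gene length and library size), and these were tested. The 4 genes were above 10 FPKM in every library, so none passed through 1 group alone. Of the genes annotated to the Casparian strip, a wall band of the root endodermis, 12 of 12 were detected in Cd+OP, 11 of 12 in Cd, 12 of 12 in control+OP and 12 of 12 in control. Their summed level was 126 to 133 FPKM in Cd+OP and 98.1 to 101 FPKM in Cd. In control+OP it was 131 to 139 FPKM, and in control 128 to 134 FPKM. Of the 10 tested, 9 fell in Cd against control, where 38.7% of all tested genes were called lower. The median log2 fold change of these 10 was -4.69 in Cd against control and 5.16 in Cd+OP against Cd, so the sum differed by less than its median member. For 10 root hair genes it was 50 to 50.2, 54.6 to 58.8, 55.7 to 60.3 and 60.1 to 62.1 FPKM in the same order of groups. Summed levels of 209 photosystem and light-harvesting genes were 168 to 174 FPKM in Cd+OP, 128 to 129.8 in Cd, 204 to 208 in control+OP and 281 to 302 in control. Those of 31 oxygen carrier and nodulation genes were 672 to 699 FPKM in Cd+OP, 500.2 to 516 in Cd, 1821 to 1894 in control+OP and 1327 to 1418 in control. Those of 103 genes with a nutrient reservoir annotation were 1087 to 1098 FPKM in Cd+OP and 414 to 435 in Cd. They were 1183 to 1220 FPKM in control+OP and 875 to 940.5 in control. By summed level, all of these lists but the root hair list stood lowest in Cd, the group in which the 4 genes stood highest. In Cd against control, 8 of 28 tested oxygen carrier and nodulation genes were called higher and 11 lower (median log2 fold change -0.02). Among 50 tested photosystem and light-harvesting genes 5 were called higher and 30 lower (median -1.13). Among 45 tested nutrient reservoir genes these were 14 and 26 (median -1.36). Over all tested genes 37.6% were called higher. The part of these lists in the values below was not tested. In root RNA, fewer cells of a type and less RNA per cell cannot be told apart.

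GLYMA_11G225000 lies on the minus strand of chromosome 11 at bases 31994088 to 31994683. The other 3 lie on the plus strand of chromosome 18: GLYMA_18G032400 at bases 2512100 to 2512995, GLYMA_18G032600 at bases 2523128 to 2523950 and GLYMA_18G033100 at bases 2545038 to 2545970. These coordinates come from the authors' table, and the sources used here name no genome build for them. The spans are short, at 596, 896, 823 and 933 bases. In each of the 4 genes the ratio of count to FPKM per base of span was the same, 0.0616 in replicate 1 of Cd, so FPKM were computed over the whole span in each.

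In every library GLYMA_11G225000 was the most abundant of the 4. It was at 213, 218 and 219.9 FPKM in Cd+OP, at 2607, 2789 and 2850 FPKM in Cd, at 56.2, 56.9 and 66.4 FPKM in control+OP and at 30.1, 26.5 and 33 FPKM in control (replicates 1, 2 and 3). No groups overlapped: Cd was highest, then Cd+OP, then control+OP, then control. Groups without overlap were found in 70.2% of tested genes in Cd+OP against control+OP, 65.4% in control+OP against control, 77.2% in Cd against control, 72.9% in Cd+OP against Cd and 64.0% in Cd+OP against control. By mean FPKM GLYMA_11G225000 ranked 132 of 49128 genes in Cd+OP, 4 in Cd, 1463 in control+OP and 3252 in control.

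GLYMA_18G033100 was at 135, 136 and 135 FPKM in Cd+OP, at 1381, 1545 and 1592 FPKM in Cd, at 27.2, 30.2 and 37.9 FPKM in control+OP and at 18.2, 16.2 and 17.3 FPKM in control. The groups kept the same order and did not overlap, and the Cd+OP libraries stood closest together. Its mean level ranked 390 in Cd+OP, 10 in Cd, 2995 in control+OP and 5676 in control.

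The lowest levels of the 4 in every group were those of GLYMA_18G032600. They were 53.9, 59.8 and 63.5 FPKM in Cd+OP, 846, 941 and 899 FPKM in Cd, 15.6, 16.9 and 20.9 FPKM in control+OP and 11.1, 10.7 and 10.8 FPKM in control. Even so, its mean ranked 1490 in Cd+OP, 17 in Cd, 5482 in control+OP and 8860 in control, again with no overlap between groups.

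GLYMA_18G032400 was at 73.6, 73.7 and 74.1 FPKM in Cd+OP, at 1500, 1525 and 1541 FPKM in Cd, at 26.3, 27.4 and 33.5 FPKM in control+OP and at 20.6, 18.2 and 17.8 FPKM in control. The groups did not overlap here either. It ranked 1109 in Cd+OP, 9 in Cd, 3299 in control+OP and 5209 in control. In the control+OP group replicate 3 was the highest library for each of the 4 genes.

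**Figure D1:**
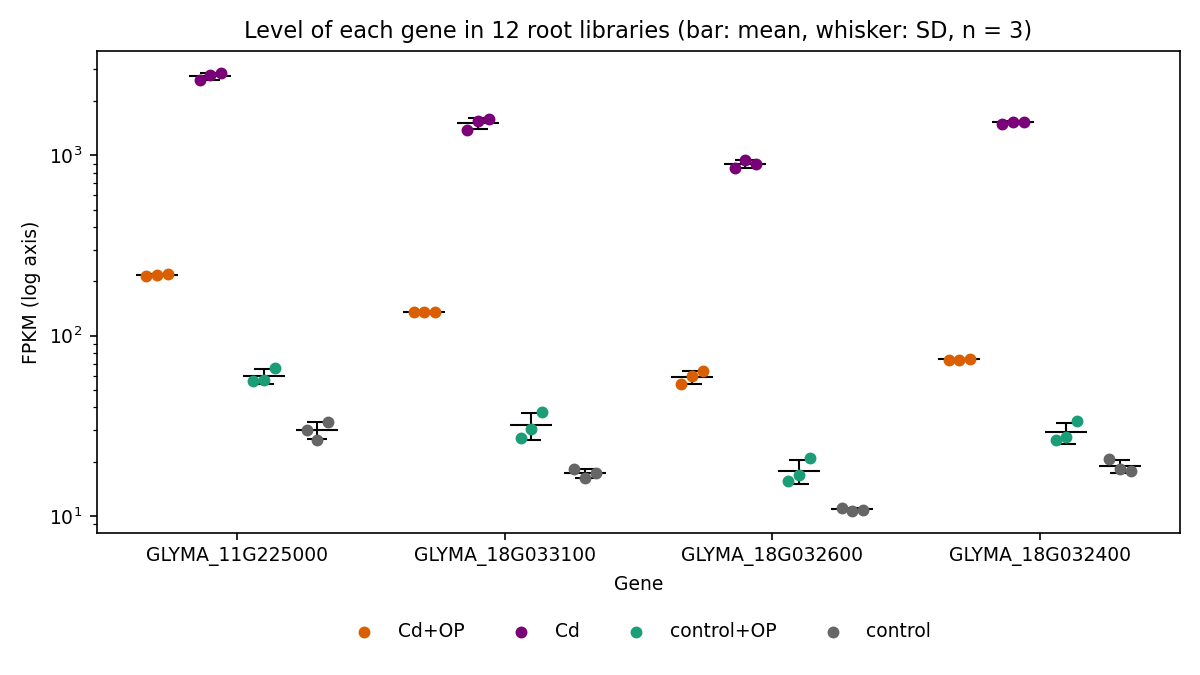
Level of the 4 genes in FPKM on a log axis, 1 point per library, for Cd+OP, Cd, control+OP and control from left to right, with the mean as a bar and the SD as a whisker (n = 3). The libraries lie at 53.9 to 219.9 FPKM in Cd+OP, 846 to 2850 FPKM in Cd, 15.6 to 66.4 FPKM in control+OP and 10.7 to 33 FPKM in control, and in each gene Cd lies highest and control lowest.

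The first comparison asks whether cadmium was accompanied by higher levels of these genes when the bacterium was present. The 3 genes tested, GLYMA_18G033100, GLYMA_11G225000 and GLYMA_18G032600, rose in Cd+OP against control+OP. GLYMA_18G033100 averaged 136 ± 0.56 FPKM in Cd+OP and 31.8 ± 5.53 FPKM in control+OP (SD, n = 3 each), a log2 fold change of 2.02 ± 0.071 (SE; adjusted p = 7.34e-18, edgeR's quasi-likelihood test with Benjamini-Hochberg adjustment over all tested genes). For GLYMA_11G225000 the means were 217 ± 3.81 FPKM in Cd+OP and 59.8 ± 5.69 FPKM in control+OP (SD, n = 3 each), a log2 fold change of 1.78 ± 0.0562 (SE, adjusted p = 8.99e-19 in edgeR). These are 4.05-fold and 3.44-fold differences for GLYMA_18G033100 and GLYMA_11G225000. Here and below, the SE of a log2 fold change was derived from edgeR's F value and not estimated apart from the test.

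GLYMA_18G032600 averaged 59.1 ± 4.84 FPKM in Cd+OP and 17.8 ± 2.8 FPKM in control+OP (SD, n = 3 each), and its log2 fold change was 1.66 ± 0.0708 (SE, adjusted p = 3.31e-16 in edgeR). GLYMA_18G032400 was chosen with its Cd+OP values known and is described without a test. It averaged 73.8 ± 0.251 FPKM in Cd+OP and 29.1 ± 3.88 FPKM in control+OP (SD, n = 3 each), with a log2 fold change of 1.27 ± 0.0566 (SE). It thus had the smallest difference of the 4, at 2.41-fold, and GLYMA_18G032600 stood at 3.15-fold.

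Calls were common in this comparison. Of the 30340 tested genes 66.7% passed the threshold of 0.05 in Cd+OP against control+OP. Those called higher in Cd+OP made up 33.6% of the tested genes, and those called and at least 2-fold higher 6.03%. The calls in 3 of 3 genes are read against these shares, and each was past 2-fold. A log2 fold change at least as high as theirs was found in 0.649% of tested genes for GLYMA_18G033100, 1.12% for GLYMA_11G225000, 1.5% for GLYMA_18G032600 and 3.4% for GLYMA_18G032400.

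Control+OP against control asks what accompanied the bacterium without cadmium. It shares the control libraries with the comparison that chose the genes, so it too is described without a test. All 4 genes stood higher in control+OP. GLYMA_11G225000 averaged 59.8 ± 5.69 FPKM in control+OP and 29.9 ± 3.24 FPKM in control (SD, n = 3 each), a log2 fold change of 1.01 ± 0.0623 (SE). GLYMA_18G033100 averaged 31.8 ± 5.53 FPKM in control+OP and 17.2 ± 0.957 FPKM in control (SD, n = 3 each), a log2 fold change of 0.89 ± 0.0792 (SE). Of the 4, GLYMA_11G225000 alone reached 2-fold, and under other settings its log2 fold change was 0.88 (without replicate 2 of control) to 1.06.

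The other 2 had smaller log2 fold changes in control+OP against control. GLYMA_18G032600 averaged 17.8 ± 2.8 FPKM in control+OP and 10.9 ± 0.218 FPKM in control (SD, n = 3 each), a log2 fold change of 0.72 ± 0.083 (SE). GLYMA_18G032400 averaged 29.1 ± 3.88 FPKM in control+OP and 18.9 ± 1.53 FPKM in control (SD, n = 3 each), a log2 fold change of 0.63 ± 0.0621 (SE). In this comparison 61.8% of tested genes were called, 34.6% as higher and 5.49% as higher by at least 2-fold. A log2 fold change at least as high was found in 5.42% of tested genes for GLYMA_11G225000, 7.21% for GLYMA_18G033100, 10.6% for GLYMA_18G032600 and 12.9% for GLYMA_18G032400. Without replicate 3 of control+OP the log2 fold changes were 0.92 for GLYMA_11G225000, 0.74 for GLYMA_18G033100, 0.58 for GLYMA_18G032600 and 0.51 for GLYMA_18G032400.

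Cd against control is the comparison on which the genes were chosen, and it is described without a test. GLYMA_11G225000 averaged 2749 ± 126 FPKM in Cd and 29.9 ± 3.24 FPKM in control (SD, n = 3 each), with a log2 fold change of 6.53 ± 0.0665 (SE). The log2 fold change was 6.45 ± 0.0827 for GLYMA_18G033100 (1506 ± 111 FPKM in Cd), 6.36 ± 0.0778 for GLYMA_18G032600 (895 ± 47.8 FPKM in Cd) and 6.34 ± 0.0642 for GLYMA_18G032400 (1522 ± 20.6 FPKM in Cd). By FPKM the means in Cd were 80.7 to 92.1 times those in control, and the 4 genes ranked 5, 7, 8 and 12 by log2 fold change among tested genes. In Cd against control 76.2% of tested genes were called, 37.6% as higher and 8.60% as higher by at least 2-fold.

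The genes interleaved by rank with others of the same annotation. Just ahead of GLYMA_11G225000 in that order stood GLYMA_11G224900, at 6.60 ± 0.0913 (SE), and just behind GLYMA_18G032400 stood GLYMA_18G032700, at 6.33 ± 0.0701 (SE). No break in value separates the 4 genes from these.

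Cd+OP against Cd shares the Cd libraries with that choice. The level in Cd+OP was 7.89% of that in Cd for GLYMA_11G225000, 9% for GLYMA_18G033100, 6.6% for GLYMA_18G032600 and 4.85% for GLYMA_18G032400. On the log2 scale these differences were -3.74 ± 0.0563, -3.55 ± 0.0694, -3.99 ± 0.066 and -4.44 ± 0.057 (SE) for the genes in the same order. In this comparison 71.0% of tested genes were called, 34.6% as lower and 5.21% as lower by at least 2-fold.

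Cd+OP nevertheless stood above control in each gene. The log2 fold change of Cd+OP against control was 2.79 ± 0.0602 for GLYMA_11G225000, 2.91 ± 0.0757 for GLYMA_18G033100, 2.37 ± 0.0754 for GLYMA_18G032600 and 1.90 ± 0.0591 for GLYMA_18G032400 (SE). By FPKM, Cd+OP was 7.26-, 7.87-, 5.43- and 3.91-fold above control in the same order of genes. In Cd+OP against control 59.5% of tested genes were called, 30.2% as higher and 5.38% as higher by at least 2-fold. These comparisons share groups, so their values are set side by side and not counted as separate evidence.

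With and without the bacterium, the difference with cadmium was unequal in size. The log2 fold change of Cd+OP against control+OP minus that of Cd against control was -4.74 for GLYMA_11G225000, -4.43 for GLYMA_18G033100, -4.71 for GLYMA_18G032600 and -5.07 for GLYMA_18G032400. These differences contain the comparison that chose the genes and were not tested. The same values say that the 4 genes were lower with the bacterium under cadmium and higher with it without cadmium. Every library of the groups bears this order, which was found in 8.51% of tested genes.

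**Figure D2:**
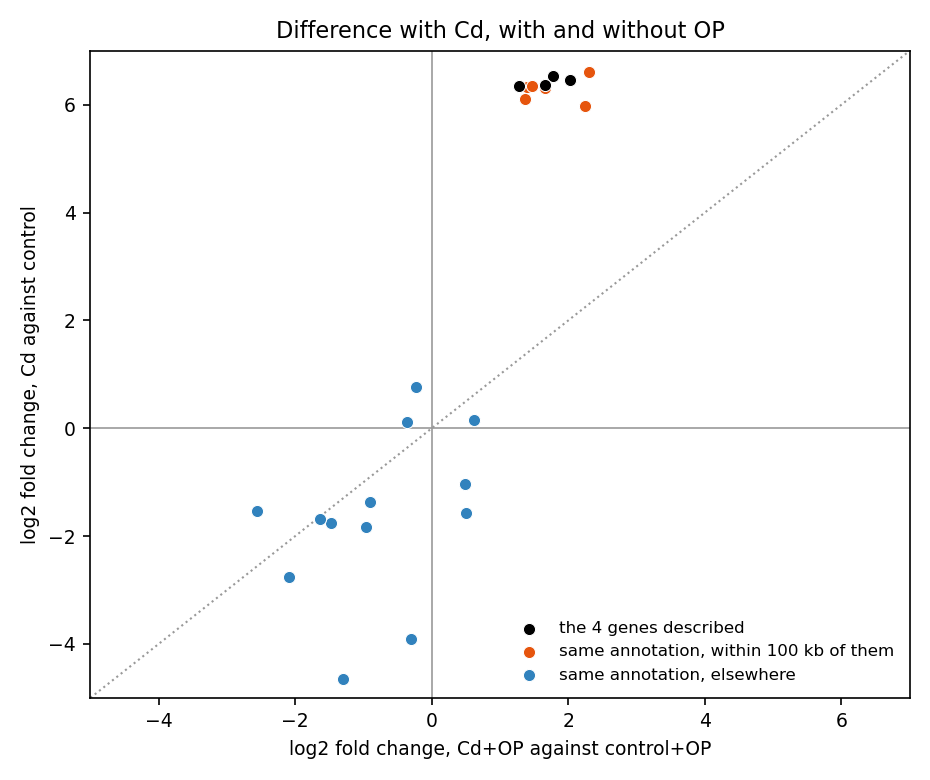
Log2 fold change of Cd+OP against control+OP (horizontal axis) and of Cd against control (vertical axis) for the 24 tested genes with both annotations, 1 point per gene, with the dotted line where they are equal. The 4 genes described (black) lie at 1.27 to 2.02 across and 6.34 to 6.53 up, beside their neighbours on the chromosomes (orange), while genes of the same annotation elsewhere (blue) lie at -2.56 to 0.62 across and -4.66 to 0.76 up.

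As a sum, the 4 genes stood at 485 ± 9.29 FPKM in Cd+OP, 6672 ± 295 FPKM in Cd, 138 ± 18.1 FPKM in control+OP and 76.8 ± 4.49 FPKM in control (SD, n = 3 each). They held 0.0431% of all counts in Cd+OP, 0.597% in Cd, 0.0124% in control+OP and 0.00691% in control. The mix of the 4 differed in Cd+OP. There GLYMA_18G033100 made up 27.9% of the sum and GLYMA_18G032400 15.2%, against 22.5% and 22.8% in Cd, 22.9% and 21% in control+OP, and 22.4% and 24.6% in control. GLYMA_18G032400 was chosen also for its value in Cd+OP against Cd, so this shift contains the choice and was not tested.

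Between these 2 genes the order of levels depended on the group. The log2 ratio of GLYMA_18G033100 to GLYMA_18G032400, computed on FPKM, was 0.87 to 0.88 in the 3 Cd+OP libraries, -0.12 to 0.05 in Cd, 0.05 to 0.18 in control+OP and -0.18 to -0.04 in control. Their libraries overlapped in Cd, control+OP and control but not in Cd+OP, where GLYMA_18G033100 was higher. This difference uses the Cd+OP values on which GLYMA_18G032400 was chosen, and it was not tested. GLYMA_11G225000 kept the largest share in all 4 groups, at 44.7% in Cd+OP, 41.2% in Cd, 43.3% in control+OP and 38.8% in control.

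**Figure D3:**
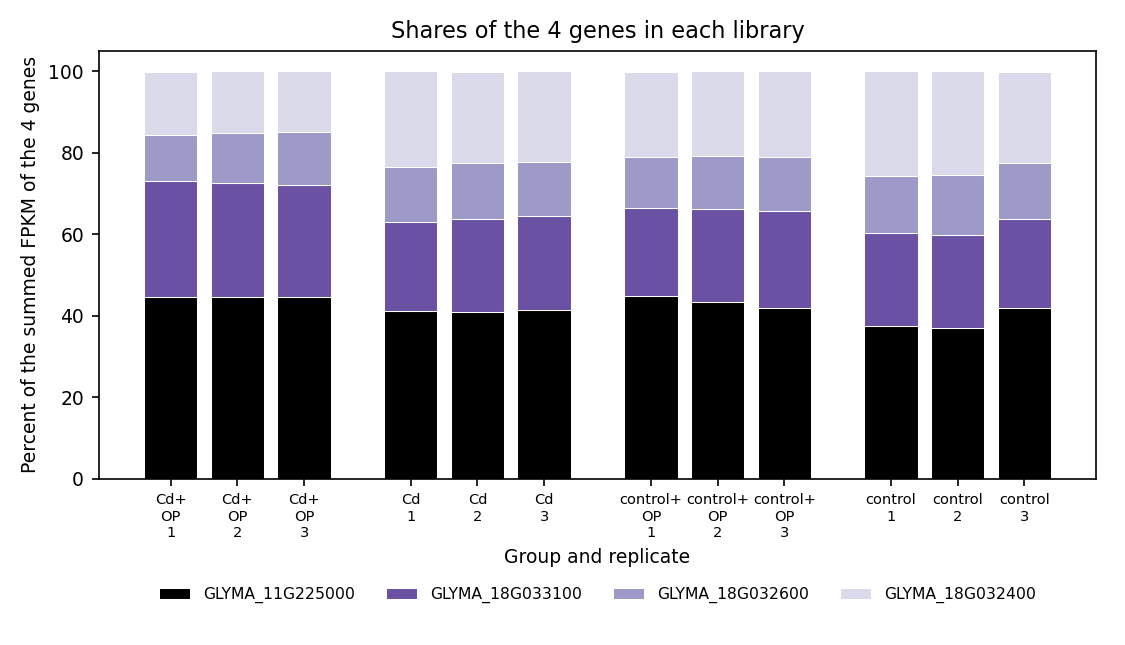
Share of each of the 4 genes in their summed FPKM, in percent, with 1 stacked bar per library, for Cd+OP, Cd, control+OP and control from left to right. GLYMA_18G032400 (palest, top) holds 15.2% on average in Cd+OP and 21 to 24.6% in the other groups. This gene was chosen also for its value in Cd+OP against Cd.

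The 3 genes of chromosome 18 belong to a run of 10 consecutive genes with both annotations, GLYMA_18G032300 to GLYMA_18G033200, over 42.5 kb (bases 2507213 to 2549732) with 0 other genes between them. Of the 10, 6 lie on the plus and 4 on the minus strand. On chromosome 11, GLYMA_11G225000 lies beside GLYMA_11G224900, and the pair spans 4.9 kb. Together these are 12 genes, of which 11 were tested. GLYMA_18G033000 was not tested, with a mean of 0.00778 FPKM. The span of GLYMA_18G032800, 9214 bases, covers GLYMA_18G032900 and GLYMA_18G033000. The sources used here do not say how reads were shared among such overlapping or similar genes, so the separate value of each of the 12 is uncertain.

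The 12 genes of the chromosome 18 run and the chromosome 11 pair summed to 1342 ± 11.2 FPKM in Cd+OP, 16257 ± 722 FPKM in Cd, 365 ± 43.5 FPKM in control+OP and 207 ± 14.8 FPKM in control (SD, n = 3 each). They held 2.01% of all counts in Cd, against 0.0255% in control. The long GLYMA_18G032800 had the most counts of the 12 in Cd, at 257501 to 271517 per library. The 4 genes made up 36.2% of the summed FPKM in Cd+OP, 41.1% in Cd, 37.9% in control+OP and 37.1% in control. By counts their part was smaller, at 0.597% of all counts in Cd beside the 2.01% of the 12. GLYMA_18G032500 of the run ranked 1 of 49128 genes by mean FPKM in Cd.

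The other 7 tested genes of the 2 sites went the same way as the 4. In Cd+OP against control+OP 7 of 7 rose, with log2 fold changes of 1.37 to 2.30 and a median of 1.66, where the median over all tested genes was 0.01. In control+OP against control 7 of 7 rose, by 0.64 or more with a median of 0.76, against 0.06 over all tested genes. In Cd against control 7 of 7 rose, by 5.97 to 6.60 with a median of 6.33, against 0.00 over all. Of all tested genes, 33.6% were called higher in Cd+OP against control+OP, 34.6% in control+OP against control and 37.6% in Cd against control.

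GLYMA_11G224900 had the highest log2 fold change of the 11 in Cd+OP against control+OP, at 2.30 ± 0.0835 (SE), with 58.2 ± 1.64 FPKM in Cd+OP and 11.2 ± 2.38 FPKM in control+OP (SD, n = 3 each). GLYMA_18G033200, at the end of the run, was the one whose level in Cd+OP lay nearest to that in Cd. It averaged 366 ± 6.86 FPKM in Cd+OP, 15.9% of the 2309 ± 75.3 FPKM in Cd, with 73.4 ± 7.98 FPKM in control+OP and 36.8 ± 1.44 FPKM in control (SD, n = 3 each). Across the run, mean levels spanned 13.1 to 366 FPKM in Cd+OP, 197 to 2938 FPKM in Cd, 4.49 to 73.4 FPKM in control+OP and 2.42 to 36.8 FPKM in control, with GLYMA_18G032900 the lowest of the tested genes in each group.

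**Figure D4:**
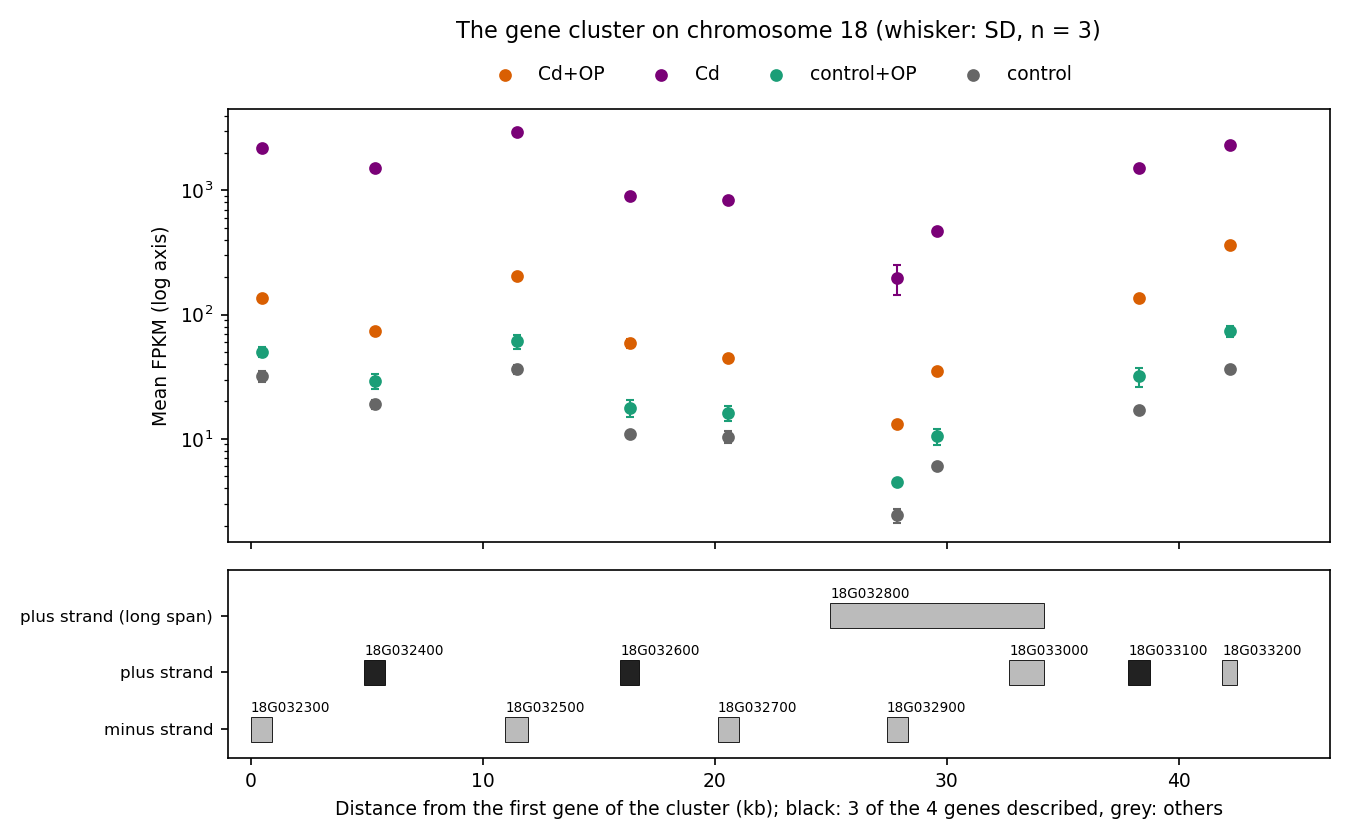
Mean FPKM on a log axis (whisker SD, n = 3) of the 9 tested genes of the chromosome 18 run by distance from its first gene in kb, with the gene spans and strands below, the 3 described genes of the run in black. In each gene Cd lies highest and control lowest, and the 4 groups keep their order of Cd, Cd+OP, control+OP and control along the 42.5 kb.

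Genes of other annotations near the 4 moved in both directions. Within 100 kb lie 17 other genes on chromosome 18 and 16 on chromosome 11, of which 6 and 8 were tested. In Cd against control 2 of these 14 rose and 8 fell, with a median log2 fold change of -0.65. In Cd+OP against control+OP 2 rose and 7 fell, with a median of -0.28. Over all tested genes 37.6% were called higher and 38.7% lower in Cd against control, and 33.6% and 33.1% in Cd+OP against control+OP. The nearest tested ones, neither of them called in Cd against control, were GLYMA_11G225100, an integral membrane protein gene 1.99 kb from GLYMA_11G225000 with a log2 fold change of -0.63 ± 0.381 (SE, adjusted p = 0.135 in edgeR), and GLYMA_18G032200, another membrane protein gene 6.33 kb from GLYMA_18G032400 with 0.08 ± 0.113 (SE, adjusted p = 0.523 in edgeR).

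The remaining 17 of the 29 genes with both annotations lie elsewhere in the genome, and 13 of them were tested. In Cd+OP against control+OP 3 of the 13 rose and 10 fell, with a median log2 fold change of -0.91. In Cd against control 2 rose, 10 fell and 1 was not called, with a median of -1.57. Over all tested genes 33.1% fell in Cd+OP against control+OP and 38.7% in Cd against control. Without the bacterium the lowest log2 fold changes were those of GLYMA_16G100100 (-4.66) and GLYMA_08G324100 (-3.91), followed by GLYMA_07G141500 (-2.76).

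In Cd+OP against control+OP the 3 genes that rose had small differences, with log2 fold changes of 0.62 for GLYMA_07G141300, 0.50 for GLYMA_18G190000 and 0.49 for GLYMA_03G073500. Those that fell by most were GLYMA_12G045500 (-2.56), GLYMA_07G141500 (-2.09) and GLYMA_18G152400 (-1.64). GLYMA_08G344300 (-1.47), GLYMA_16G100100 (-1.30), GLYMA_11G120400 (-0.96), GLYMA_18G191800 (-0.91), GLYMA_18G191600 (-0.36), GLYMA_08G324100 (-0.31) and GLYMA_07G139400 (-0.23) made up the rest. The call of GLYMA_08G324100 was lost under several other settings.

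In control+OP against control 8 of these 13 rose, 2 fell and 3 were not called, with a median log2 fold change of 0.59, where 34.6% of all tested genes were called higher and 27.2% lower. GLYMA_07G141500 had the largest difference, at 188 ± 2.98 FPKM in control+OP and 48 ± 2.22 FPKM in control (SD, n = 3 each), and it was at 46.4 ± 1.18 FPKM in Cd+OP and 7.04 ± 1.78 FPKM in Cd. The most abundant of the 13, GLYMA_18G190000, averaged 609.8 ± 2.54 FPKM in Cd+OP, 159 ± 9.85 FPKM in Cd, 410.4 ± 7.72 FPKM in control+OP and 473 ± 23.4 FPKM in control. Cd was thus its lowest group, where the 4 genes were at their highest.

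**Figure D5:**
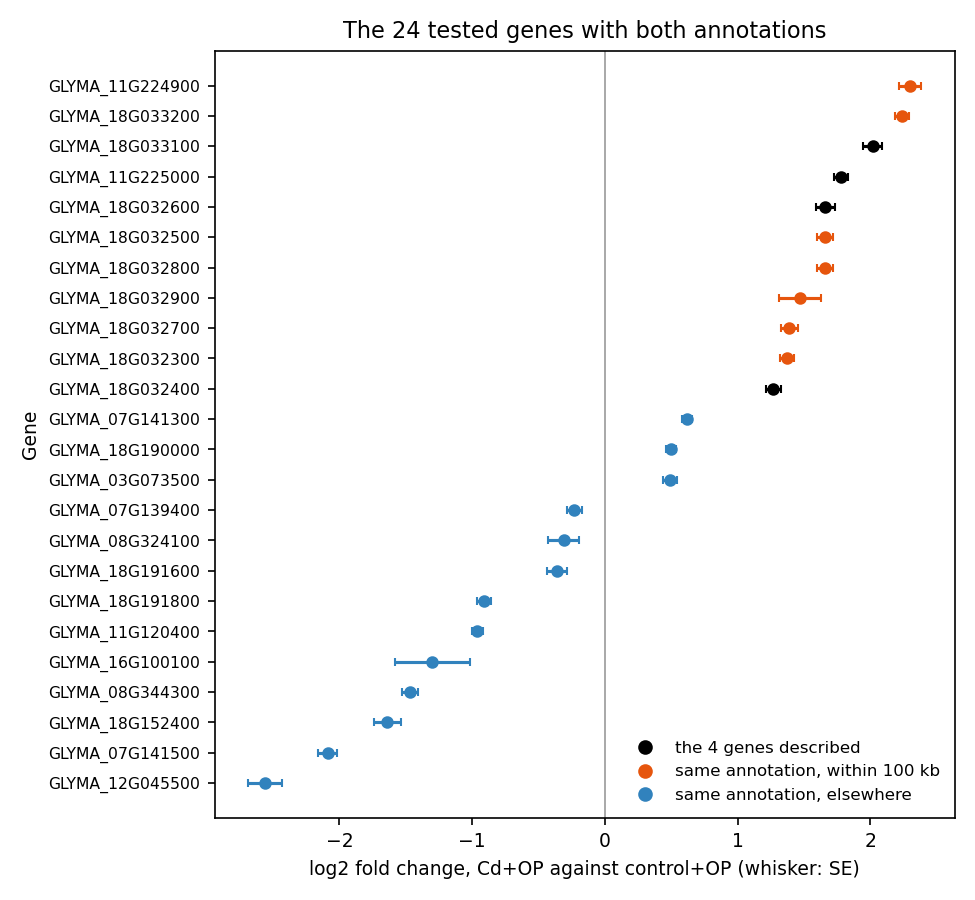
Log2 fold change of Cd+OP against control+OP with its SE for the 24 tested genes with both annotations, ordered by value. The 11 genes of the chromosome 18 run and the chromosome 11 pair (black and orange) lie at 1.27 to 2.30, above the 13 genes elsewhere (blue), which lie at -2.56 to 0.62.

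Lists of related annotations, set without the 29 genes, held genes that rose and genes that fell. Of 14 tested genes annotated to systemic acquired resistance 8 rose, 3 fell and 3 were not called in Cd+OP against control+OP (median log2 fold change 0.34), and 10 rose and 2 fell in Cd against control (median 0.55). Of 12 tested genes with fatty acid binding 5 rose and 4 fell in Cd+OP against control+OP (median 0.02), and 5 rose and 6 fell in Cd against control (median -0.40). Over all tested genes the median was 0.01 in Cd+OP against control+OP and 0.00 in Cd against control. The shares called higher and lower were 33.6% and 33.1% in Cd+OP against control+OP, and 37.6% and 38.7% in Cd against control.

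Wider lists also held genes that rose and genes that fell, and are read against all tested genes, of which 33.6% were called higher and 33.1% lower in Cd+OP against control+OP, and 37.6% and 38.7% in Cd against control. Of 188 tested genes of lipid transport, transfer or binding 52 rose and 80 fell in Cd+OP against control+OP, and 64 rose and 82 fell in Cd against control. Of 72 tested salicylic acid genes, a hormone through which systemic acquired resistance acts, 34 rose and 20 fell in Cd+OP against control+OP, and 32 rose and 33 fell in Cd against control. Of 144 tested chitinase and defence genes 55 rose and 53 fell in Cd+OP against control+OP, and 48 rose and 65 fell in Cd against control. Of 45 tested genes of long-chain fatty acids, cutin, suberin and wax 16 rose and 15 fell in Cd+OP against control+OP, and 15 rose and 21 fell in Cd against control. The medians of these 4 lists lay between -0.08 and 0.14 in Cd+OP against control+OP.

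Among genes without both annotations, those with the pattern most like each gene were found by Pearson's correlation of log2(FPKM + 1) over the 12 libraries, with a mean of at least 5 FPKM. The libraries share their groups, so the coefficients describe levels between groups. The highest for GLYMA_18G033100 was GLYMA_05G065300 (r = 0.9988), annotated to the extracellular region, at 253 FPKM in Cd+OP, 2839 in Cd, 51.7 in control+OP and 34.7 in control. The highest for GLYMA_18G032400 was GLYMA_09G040400 (r = 0.9985), annotated to defence response and abscisic acid, at 39 FPKM in Cd+OP, 562 in Cd, 18.5 in control+OP and 12 in control. For GLYMA_11G225000 it was GLYMA_02G193700 (r = 0.9984), which has no annotation, and a far smaller range: 27.1 FPKM in Cd+OP, 44.3 in Cd, 20.6 in control+OP and 17.6 in control. For GLYMA_18G032600 it was GLYMA_13G261200 (r = 0.9964), annotated to lipid transport and lipid binding. Its range too was far smaller: 79.2 FPKM in Cd+OP, 125 in Cd, 66.4 in control+OP and 59.7 in control. The log2 fold change of GLYMA_13G261200 in Cd against control was 1.06, against 6.36 for GLYMA_18G032600.

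GLYMA_09G163200, an endopeptidase inhibitor gene, also stood among the 3 most like GLYMA_18G033100 (r = 0.9963), at 45.4 FPKM in Cd+OP, 433 in Cd, 6.87 in control+OP and 4.81 in control. The remaining genes of most similar pattern differed far less in Cd against control. Their log2 fold changes were 1.43 for GLYMA_16G040400, 1.68 for GLYMA_17G254200, 1.46 for GLYMA_03G248200, 1.32 for GLYMA_10G212900 and 2.81 for GLYMA_15G013900. Of the 16313 genes compared, 27 to 38 reached a coefficient of 0.99 with each of the 4. Between GLYMA_11G225000 and the chromosome 18 genes they were 0.9989 for GLYMA_18G033100, 0.9971 for GLYMA_18G032600 and 0.9902 for GLYMA_18G032400.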

How the data were processed

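Root RNA of 12 libraries was sequenced. The deposited table holds, per the file headers, FPKM and a count for each gene and library. The deposited values named count are handled here by the name of expected counts: they are whole but no plain tally, with 10000 values at 4 against 5019 at 3 and 3231 at 5. The aligner, the counter, the build and the annotation are not named in the sources at hand. From the counts, edgeR 4.0.16 in R 4.3.3 (TMM scaling, 1 mean per group, quasi-likelihood test, two-sided, Benjamini-Hochberg, threshold 0.05) tested the 30340 of 49128 genes that averaged 1 FPKM or more. Each SE of a log2 fold change was worked back from F in that test, as the absolute change over root F. It is no separate estimate of spread, and the ratio of change to SE restates the test. In comparisons described without a test, this SE is therefore not to be read as a test result. The biological coefficient of variation was 0.0796. Alternatives used DESeq2 1.42.0 and limma 3.58.1 on log2(FPKM + 1) and log2(FPKM + 0.1), other filters and scalings, and each library left out. The code was tested on simulated data. Total counts were 49904227 to 57693211. An interval from them covers only counting error. Samples were grouped by their labels. The 4 genes, the lists, the rules and the tests were chosen with earlier results of these data known. A planned test of the 4 genes in control+OP against control, and of GLYMA_18G032400 in Cd+OP against control+OP, is not reported, since the choice used libraries of those comparisons.

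Named are the 4 genes, the tested genes that share both annotations, near neighbours and, for each of the 4, the 3 genes of most similar pattern with a mean of at least 5 FPKM. Of the near neighbours, and of the annotation lists, most names are left out for length. Lists follow Gene Ontology terms. No sequence is shown, as 0 identifiers matched the reference table used here.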

Additional observations from a re-analysis of the deposited data

Results flagged for a closer look

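These 23 genes are listed because every library differed in one direction with the bacterium under cadmium and in the opposite direction without cadmium, or likewise for cadmium with and without the bacterium. The value given is the log2 difference with cadmium in the presence of the bacterium minus that without it, which equals the log2 difference with the bacterium under cadmium minus that without cadmium. None of these differences was tested here.

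For the 4 genes described it was -4.74 in GLYMA_11G225000, -4.43 in GLYMA_18G033100, -4.71 in GLYMA_18G032600 and -5.07 in GLYMA_18G032400. Each was lower in every Cd+OP library than in every Cd library, and higher in every control+OP library than in every control library. The 7 neighbours of the same annotation did likewise, with -4.31 in GLYMA_11G224900, -4.73 in GLYMA_18G032300, -4.67 in GLYMA_18G032500, -4.94 in GLYMA_18G032700, -4.64 in GLYMA_18G032800, -4.88 in GLYMA_18G032900 and -3.73 in GLYMA_18G033200. Over all tested genes, 8.51% had this order of libraries, and 17.8% had opposite directions with the bacterium in either order.

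Of the 13 tested genes of the same annotation elsewhere, GLYMA_07G139400 (-0.98) and GLYMA_18G190000 (2.06) had opposite directions in both contrasts, and GLYMA_03G073500 (1.52) for cadmium alone. Over all tested genes, 17% had opposite directions with cadmium. GLYMA_18G190000 was higher with the bacterium under cadmium and lower with it without cadmium, the reverse of the 4 genes.

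Of the genes with a similar pattern, 9 of 10 were lower with the bacterium under cadmium and higher with it otherwise. The values were -1.01 in GLYMA_02G193700, -4.15 in GLYMA_05G065300, -1.12 in GLYMA_16G040400, -3.84 in GLYMA_09G163200, -0.88 in GLYMA_13G261200, -1.27 in GLYMA_17G254200, -1.19 in GLYMA_03G248200, -4.55 in GLYMA_09G040400 and -2.20 in GLYMA_15G013900. These genes were picked for that likeness, so their direction is no separate support.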

How the results depend on the processing

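The 3 genes tested in Cd+OP against control+OP kept their calls under 21 of 21 alternatives. In Cd+OP against control+OP the log2 fold changes ranged over 1.73 to 1.87 for GLYMA_11G225000, 1.91 to 2.17 for GLYMA_18G033100, 1.56 to 1.79 for GLYMA_18G032600 and 1.20 to 1.39 for GLYMA_18G032400. In control+OP against control they ranged over 0.88 to 1.06, 0.74 to 0.99, 0.58 to 0.81 and 0.51 to 0.70 in the same order. With a mean of at least 5 FPKM asked, which leaves 16336 genes, fewer genes were called: 12241 against 20229 in Cd+OP against control+OP, 11494 against 18761 in control+OP against control, 13201 against 23132 in Cd against control, 12874 against 21553 in Cd+OP against Cd, and 11402 against 18066 in Cd+OP against control. Of the 20 tested genes with both annotations other than the 4, 7 were called lower and 11 higher in Cd+OP against control. Over all tested genes 59.5% were called in this comparison, 30.2% as higher. Those called lower were 3 with limma on log2(FPKM + 1) and 2 on log2(FPKM + 0.1), and the cause was not tested. GLYMA_08G324100 in Cd+OP against control+OP lost its call under 6 alternatives, among them limma and no filter. With counts divided by 4 GLYMA_18G032900 lost its call in control+OP against control. The 3 genes most like each of the 4 make 12 pairs with 10 different genes. Spearman's coefficient gave 0 of these 12 pairs and leaving out a library gave 7 to 10, the lowest without replicate 3 of Cd+OP.

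Replicate numbers did not pair the libraries: correlations of same-numbered libraries were -0.0218 to 0.0564 over 18 pairs, and 1 of 12 libraries correlated best with its own number. With the replicate number as a block, 20145 genes were called in Cd+OP against control+OP and 18643 in control+OP against control, and the 3 tested genes kept their calls. The search for promoter motifs and the comparison of protein sequences were not run, since no sequences were at hand.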

Other observations

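Both chromosome sites lie beside genes of the same kind: 3 genes annotated to peptide:proton symporter activity lie within 100 kb of the chromosome 18 run, and 3 within 100 kb of GLYMA_11G225000. Whether the sites are copies of each other was not tested, as no sequence was used.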
